A study of Mus musculus with 3 samples.

Results

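The genes of 10 receptors for dopamine, serotonin, and noradrenaline, out of 31053 genes in the count matrices, were followed in SST neurons of the mouse neocortex (NCx) around birth. They were taken by name: Drd1 and Drd2 for dopamine, Htr1a, Htr1b, Htr2c, and Htr3a for serotonin, and Adra1a, Adra1b, Adra2a, and Adra2c for noradrenaline. Mice carried Sst-Cre; RCEloxP, in which Cre made in Sst cells switches on GFP for good, and their GFP+ cortical cells were collected by FACS for droplet single-cell RNA-seq. Each stage gave 1 library, which pooled 6 animals (E16.5) or 3 animals (P1, and again P5), all of this genotype. Because the label is permanent, the sort also holds cells that expressed Sst earlier, and because animals were pooled, no spread between animals can be given.

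Monoamine fibers from the brainstem and midbrain reach the NCx before birth, and most monoamine receptors are G protein-coupled receptors. The α1-adrenergic receptors and HTR2C act through Gq, phospholipase C, and calcium, DRD1 acts through Gs and raises cAMP, and DRD2, HTR1A, HTR1B, and the α2-adrenergic receptors act through Gi and lower it. HTR3A is the exception, because it is the subunit of a cation channel opened by serotonin.

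Cells were kept with more than 700 genes and a mitochondrial share under 10%, which left 3952, 2501, and 2980 cells at E16.5, P1, and P5, respectively. Cells with at least 1 unique molecular identifier (UMI, which marks a captured mRNA molecule) of Nos1 are called Nos1 cells. Nos1 encodes neuronal nitric oxide synthase and is a gene of SST long-range projection (LRP) neurons. Cells with a UMI of Lhx6, a transcription factor of interneurons from the medial ganglionic eminence, and no Nos1 are called Lhx6 cells. There were 67, 434, and 547 Nos1 cells and 3269, 1606, and 1874 Lhx6 cells in the 3 libraries, and 616, 461, and 559 cells had neither gene. A level is given as UMIs summed over the cells of a group per 1000000 UMIs of that group (CPM), with an exact 95% Poisson interval. In such sums, fewer cells with a transcript and less of it per cell cannot be told apart. Intervals cover counting error only. With 1 library per stage, a difference between stages cannot be told apart from one between libraries and was not tested. Nos1 and Lhx6 cells were compared within each library, and no test was made over the 3 libraries, which are of different ages: with 3 pairs an exact two-sided permutation test cannot go below p = 0.25.

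The Nos1 cells carried genes of the sorted lineage. Sst, the neuropeptide of that lineage, was detected in 82.1%, 90.8%, and 96.0% of them, and Lhx6 in 73.1%, 82.9%, and 71.7%. Sst was also in 76.3%, 71.0%, and 70.9% of Lhx6 cells. Chodl, a marker of LRP neurons, was at 34.0, 74.8, and 18.1 CPM in E16.5 cells with 1, 2 to 4, and 5 or more Nos1 UMIs. These were only 38, 21, and 8 cells. In cells with 5 or more at P5 it was at 480 CPM. Whether the E16.5 Nos1 cells are LRP neurons was not tested. At E16.5 and P1, the Nos1 cells also held transcripts of excitatory neurons. The summed level of Neurod2, Neurod6, Tbr1, Slc17a7, and Slc17a6 was 581 and 154 CPM in Nos1 cells against 8.05 and 9.36 CPM in Lhx6 cells, with all 5 genes detected in both groups. At P5 it was 6.11 and 2.81 CPM, and Slc17a6 was at 0. Where named below, results that rest on Nos1 cells are therefore also given without the cells that had 3 or more UMIs of these genes. Genes of caudal eminence and Meis2 cells (Prox1, Sp8, Meis2, Vip, Adarb2, Tshz1, and Pax6) summed to 180, 93.9, and 25.0 CPM in Nos1 cells and 44.0, 53.7, and 14.1 CPM in Lhx6 cells, with Vip at 0 in both groups of every library, and their part in the results was not tested. The 4 microglial genes C1qa, C1qb, Csf1r, and P2ry12 were at 0 in Nos1 cells of every library.

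The receptor genes lie on 7 chromosomes of GRCm38. Drd1 is at chr13:54051183-54055705, Htr1a at chr13:105443639-105448122, Drd2 at chr9:49340627-49408177, Htr1b at chr9:81628291-81633828, Htr3a at chr9:48899213-48911099, and Htr2c at chrX:146962513-147197277. Adra1a is at chr14:66635251-66771168, Adra1b at chr11:43774606-43901210, Adra2a at chr19:54044151-54048982, and Adra2c at chr5:35278319-35281763. Htr1a and Adra2c each have 1 exon in their only annotated transcript. Htr1b and Htr3a overlap a gene on the other strand (D430036J16Rik and Gm32335), and Htr2c holds 8 small RNA genes on its own strand. Drd1, Drd2, Htr1a, and the 4 adrenergic receptor genes overlap no other gene.

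RefSeq promoter windows, from 250 bases before to 50 bases after a transcript start, were at hand for 8 of the 10 genes (10 windows). Those of Drd1 and Adra1b, 2 starts each, are shown because these genes stood far above Lhx6 cells in Nos1 cells, and that of Htr1b because it stood below. Capitals mark matches, on either strand, to a GC box (GGGCGG) or a CCAAT box (CCAAT), and no match of these letters overlapped another.
Drd1, chr13:54055609-54055908, minus strand: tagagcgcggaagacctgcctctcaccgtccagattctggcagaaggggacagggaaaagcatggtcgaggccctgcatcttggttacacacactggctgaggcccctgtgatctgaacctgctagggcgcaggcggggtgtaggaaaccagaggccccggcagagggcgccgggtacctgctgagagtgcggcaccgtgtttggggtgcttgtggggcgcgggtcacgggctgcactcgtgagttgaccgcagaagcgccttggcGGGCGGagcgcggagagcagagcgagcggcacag
Drd1, chr13:54054731-54055030, minus strand: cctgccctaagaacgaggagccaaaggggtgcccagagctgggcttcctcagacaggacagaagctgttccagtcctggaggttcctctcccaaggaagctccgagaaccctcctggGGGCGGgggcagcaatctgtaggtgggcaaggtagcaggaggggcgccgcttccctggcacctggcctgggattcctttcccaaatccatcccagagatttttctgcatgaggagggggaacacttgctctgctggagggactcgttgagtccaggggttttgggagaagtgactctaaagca
Adra1b, chr11:43901188-43901487, minus strand: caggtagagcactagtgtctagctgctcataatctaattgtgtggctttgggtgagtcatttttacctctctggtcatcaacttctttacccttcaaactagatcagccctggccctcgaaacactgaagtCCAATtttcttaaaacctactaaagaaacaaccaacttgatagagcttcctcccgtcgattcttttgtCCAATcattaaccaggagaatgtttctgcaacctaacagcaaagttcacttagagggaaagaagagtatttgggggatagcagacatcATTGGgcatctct
Adra1b, chr11:43836440-43836739, minus strand: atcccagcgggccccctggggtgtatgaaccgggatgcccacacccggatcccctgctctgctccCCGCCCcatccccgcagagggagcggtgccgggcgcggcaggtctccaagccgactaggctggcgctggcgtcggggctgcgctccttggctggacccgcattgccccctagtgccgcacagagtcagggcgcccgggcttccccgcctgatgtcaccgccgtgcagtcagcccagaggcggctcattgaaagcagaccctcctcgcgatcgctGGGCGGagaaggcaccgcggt
Htr1b, chr9:81633783-81634082, minus strand: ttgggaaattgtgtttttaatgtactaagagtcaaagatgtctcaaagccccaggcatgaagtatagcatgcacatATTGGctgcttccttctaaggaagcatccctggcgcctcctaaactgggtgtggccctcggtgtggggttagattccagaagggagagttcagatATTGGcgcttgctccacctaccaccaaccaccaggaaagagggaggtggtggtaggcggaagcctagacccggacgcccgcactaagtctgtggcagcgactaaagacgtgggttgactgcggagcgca
Both Drd1 windows had 1 GC box and no CCAAT box. The Adra1b starts differed from each other, with 3 CCAAT boxes and a GC content of 42.3% at the first and 2 GC boxes and 71.3% at the second. Htr1b had 2 CCAAT boxes and no GC box. Of all 32851 windows in the table, 35.7% held a GC box and 37.4% a CCAAT box, and the median GC content was 52.7%. A TATA box (TATAAA) was found in 1 window of these genes, that of Adra2a, and in 13.6% of all windows, and the cAMP response element TGACGTCA in none of them and in 1.79% of all. These are matches of letters and not shown to be sites in use.

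Adra1a, one of the receptors through which noradrenaline acts on Gq, was low in both groups at E16.5 and high in Nos1 cells after birth. Its level in Nos1 cells was 1.68 CPM at E16.5 (1 UMI), 66.5 CPM at P1 (55.6 to 78.9), and 88.6 CPM at P5 (75.9 to 103). In Lhx6 cells it was 1.41, 11.1, and 17.3 CPM. The Nos1 cells were therefore 5.99-fold higher at P1 (95% counting interval of the ratio, 4.54 to 7.93) and 5.13-fold higher at P5 (4.11 to 6.40), and in neither library did the intervals of the groups overlap. At E16.5 the ratio of 1.19 rested on 1 UMI and ranged from 0.0292 to 7.17, so that a difference was not detectable at this depth. The share of cells with an Adra1a UMI was 24.4% and 26.7% of Nos1 cells at P1 and P5 and 4.92% and 7.26% of Lhx6 cells, at a median of 3704.5 and 3073 UMIs per cell in Nos1 cells and 3811 and 4752.5 in Lhx6 cells. With every cell thinned to 2000 UMIs the shares were 13.5% and 16.4% against 2.05% and 3.95%. Among 20 cells of the P5 library with excitatory genes and neither Lhx6 nor Nos1, 5 held Adra1a. The study lists Adra1a among the genes of LRP neurons, chosen on these same cells, so its place here is not independent evidence.

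Adra1b, the second Gq-coupled adrenergic receptor of the set, came up later. Its level in Nos1 cells was 0 of 594151 UMIs at E16.5, 9.14 CPM at P1 (5.42 to 14.4), and 83.0 CPM at P5 (70.8 to 96.8). In Lhx6 cells it was 0.0942, 4.12, and 13.1 CPM. From P1 to P5 the level was 9.08-fold higher in Nos1 cells (5.57 to 15.7) and 3.17-fold higher in Lhx6 cells (2.14 to 4.81). The ratio of Nos1 cells over Lhx6 cells was 2.22 at P1 (1.18 to 4.06) and 6.35 at P5 (4.99 to 8.11), and these intervals did not overlap. A UMI of Adra1b was found in 3.92% of Nos1 cells at P1 and 20.1% at P5, against 1.56% and 5.50% of Lhx6 cells. At E16.5, 3 counts in the Nos1 cells would be 5.05 CPM, so a level like that of the Lhx6 cells would have gone unseen.

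**Figure D1:**
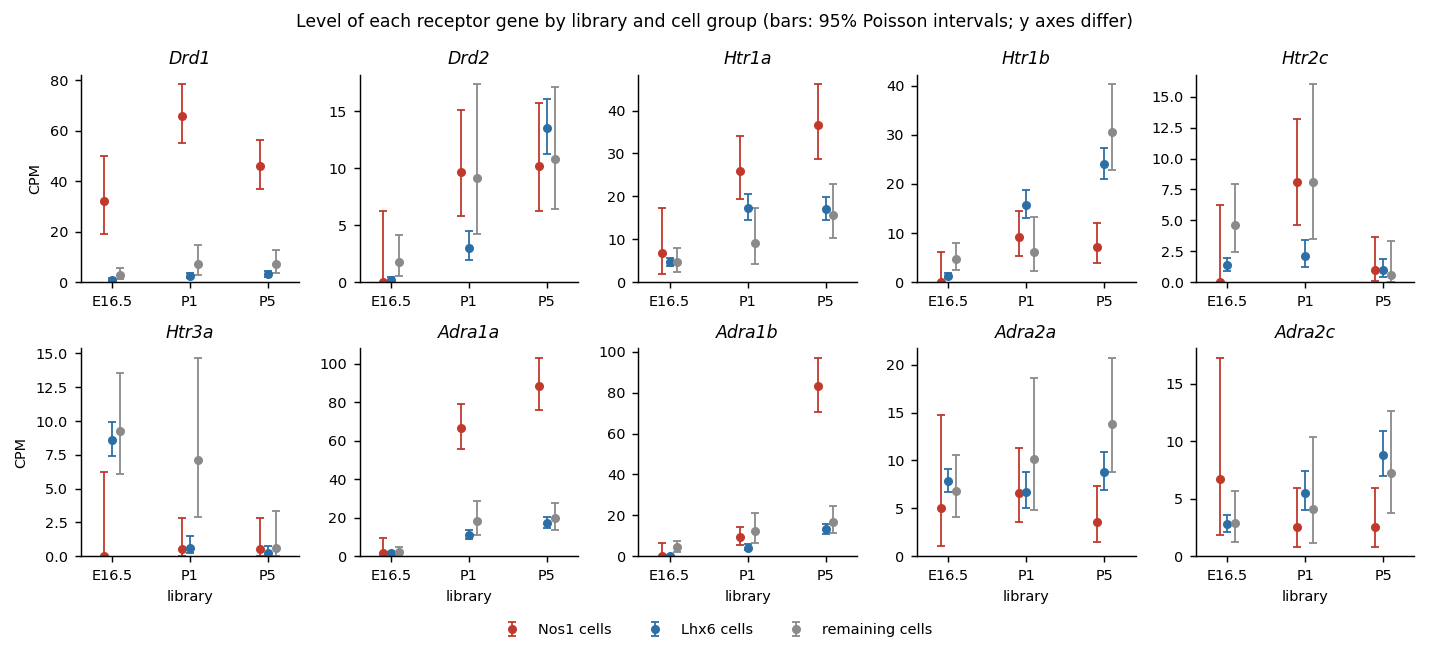
Level of each receptor gene in CPM (y axis, own scale per gene) in the E16.5, P1, and P5 libraries (x axis) for Nos1 cells, Lhx6 cells, and cells with neither gene. Points are 1 library each and bars are exact 95% Poisson intervals, and Drd1, Adra1a, and Adra1b show the red points far above the blue ones, at 45.8, 88.6, and 83.0 CPM at P5.

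Drd1, the receptor through which dopamine raises cAMP, was higher in Nos1 cells than in Lhx6 cells in every library. Its level in Nos1 cells was 32.0 CPM at E16.5 (19 UMIs, 19.3 to 49.9), 66.01 CPM at P1 (55.1 to 78.4), and 45.8 CPM at P5 (36.9 to 56.3). In Lhx6 cells it was 0.942, 2.37, and 3.02 CPM. The ratio was 33.9 (17.1 to 67.0), 27.8 (17.1 to 47.7), and 15.2 (9.82 to 24.1), respectively, and the lowest end of these intervals was 9.82. A Drd1 UMI was found in 22.4%, 23.3%, and 14.4% of Nos1 cells and in 0.489%, 0.934%, and 1.44% of Lhx6 cells, at a median depth of 7863 and 5808 UMIs per cell at E16.5. Thinned to 2000 UMIs, the shares were 6.15%, 14.9%, and 8.45% against 0.161%, 0.152%, and 0.717%.

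At E16.5 Drd1 was as high in Nos1 cells without excitatory genes as in all of them. Of the 67 Nos1 cells, 14 had 3 or more excitatory-gene UMIs, and 1 of these held Drd1 (3 UMIs, 16.3 CPM). Of the other 53, 14 held it (26.4%, 39.0 CPM). It was also found in 13 of the 49 Nos1 cells with Lhx6 (26.5%, 37.6 CPM). Cells with excitatory genes outside the Nos1 and Lhx6 groups had Drd1 as well, in 2 of 26, 1 of 24, and 5 of 20 cells of the 3 libraries.

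Drd2, the Gi-coupled dopamine receptor, followed another order. Its level in Lhx6 cells was 0.188 CPM at E16.5 (4 UMIs), 3.00 CPM at P1 (1.92 to 4.46), and 13.5 CPM at P5 (11.2 to 16.1). In Nos1 cells it was 0, 9.65 (5.81 to 15.1), and 10.2 CPM (6.22 to 15.7). Nos1 cells were thus 3.22-fold higher at P1 (1.67 to 6.13), whereas at P5 the ratio was 0.755 (0.446 to 1.22) and the groups overlapped. In Lhx6 cells the P5 library was 4.51-fold above P1 (2.89 to 7.29), and in Nos1 cells the ratio of the same libraries was 1.06 (0.535 to 2.09).

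Htr1a, an inhibitory serotonin receptor that opens potassium channels in many neurons, was detected in both groups. Its level was 4.66, 17.4, and 17.0 CPM in Lhx6 cells and 6.73, 25.9, and 36.7 CPM in Nos1 cells. The ratio was 1.44 (0.386 to 3.81), 1.49 (1.06 to 2.07), and 2.16 (1.61 to 2.88) in the order of age. In Lhx6 cells the P1 library was 3.72-fold above E16.5 (2.86 to 4.87), and P5 over P1 was 0.977 (0.773 to 1.24). None of the excitatory-gene cells of the 3 libraries held Htr1a (0 of 26, 0 of 24, and 0 of 20), and the exact intervals of these shares of cells with a UMI reached 13.2%, 14.2%, and 16.8%. The study gives Htr1a as a marker of Martinotti cells chosen on these same cells, so that is not independent either.

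Htr1b, an inhibitory serotonin receptor that is transported to axon terminals, went the other way. Its level in Lhx6 cells was 1.22 CPM at E16.5, 15.7 CPM at P1 (13.1 to 18.7), and 24.0 CPM at P5 (20.9 to 27.3). In Nos1 cells it was 0, 9.14 (5.42 to 14.4), and 7.13 CPM (3.90 to 11.96). Lhx6 cells were 1.72-fold above Nos1 cells at P1 (1.05 to 3.00) and 3.36-fold at P5 (1.96 to 6.25). In Lhx6 cells P1 was 12.8-fold above E16.5 (8.37 to 20.4). The pair of genes for inhibitory serotonin receptors thus stood on opposite sides at P5, with Htr1a higher and Htr1b lower in Nos1 cells, and neither interval of the ratio held 1.

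Htr2c, a Gq-coupled serotonin receptor, was scarce, with 29, 17, and 9 UMIs in Lhx6 cells (1.37, 2.12, and 0.972 CPM). In Nos1 cells it was 0, 8.12, and 1.02 CPM. The 8.12 CPM at P1 were 16 UMIs in 4 cells, and 1 cell held 13 of them. Without that cell the level was 1.54 CPM and the ratio to Lhx6 cells turned from 3.83 to 0.726. The 16 Nos1 cells with excitatory genes held 14 of the 16 UMIs, and without such cells the ratio was 0.517. Another 6 UMIs of the P1 library were in 1 of the 24 excitatory-gene cells.

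Htr3a, the serotonin-gated channel subunit best known from interneurons of the caudal ganglionic eminence, was higher before birth. In Lhx6 cells it had 183 UMIs at E16.5 (8.62 CPM, 7.42 to 9.96), 5 at P1 (0.624 CPM), and 2 at P5 (0.216 CPM). P1 was 13.8-fold below E16.5 (5.81 to 43.0). Nos1 cells held 0, 1, and 1 UMIs, and at E16.5 the exact interval of their ratio to Lhx6 cells ran from 0 to 0.728, that is, a level at least 1.37-fold lower. Of the 147 kept cells with Htr3a at E16.5, 85.7% held Lhx6 and 76.2% Sst, against 83.9% and 74.8% of the other 3805 cells. Of the 7 genes of caudal eminence and Meis2 cells, Tshz1 was in 35.4% of them against 14.0% of the other cells. The others were in few cells of either kind, with Prox1 in 2.72% against 0.710%, Sp8 in 0.680% against 0.657%, Adarb2 in 2.04% against 1.31%, Meis2 in 1.36% against 2.52%, Pax6 in 0 against 1.16%, and Vip in none. The nuclear receptor gene Nr2f2 was in 39.5% against 24.5%. Only 9 cells at P1 and 4 at P5 had a UMI of Htr3a.

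The α2-adrenergic receptor genes, both coupled to Gi, were lower in Nos1 than in Lhx6 cells at P5. Adra2a changed little over the libraries in Lhx6 cells, with P1 over E16.5 at 0.857 (0.619 to 1.17) and P5 over P1 at 1.30 (0.908 to 1.87), and Adra2c was higher in each later one, by 1.98-fold (1.31 to 2.97) and 1.59-fold (1.09 to 2.35). The level of Adra2a in Lhx6 cells was 7.87, 6.74, and 8.75 CPM, and that in Nos1 cells 5.05, 6.60, and 3.57 CPM. The ratio was 0.642 (0.131 to 1.91), 0.979 (0.490 to 1.82), and 0.408 (0.159 to 0.879), the last a 2.45-fold lower level in Nos1 cells. Adra2c was at 2.78, 5.49, and 8.75 CPM in Lhx6 cells. In Nos1 cells it had 4, 5, and 5 UMIs (6.73, 2.54, and 2.55 CPM). Its ratio was 2.42 (0.639 to 6.54), 0.462 (0.143 to 1.16), and 0.291 (0.0921 to 0.708) in the order of age, and the interval left out 1 at P5 alone. These ratios are over all Nos1 cells. At P1, the 16 Nos1 cells with 3 or more excitatory-gene UMIs held 4 of the 5 Adra2c UMIs and 6 of the 13 Adra2a UMIs. Without these 16 cells, the P1 level in Nos1 cells was 0.550 CPM for Adra2c (1 UMI) and 3.85 CPM for Adra2a (7 UMIs).

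**Figure D2:**
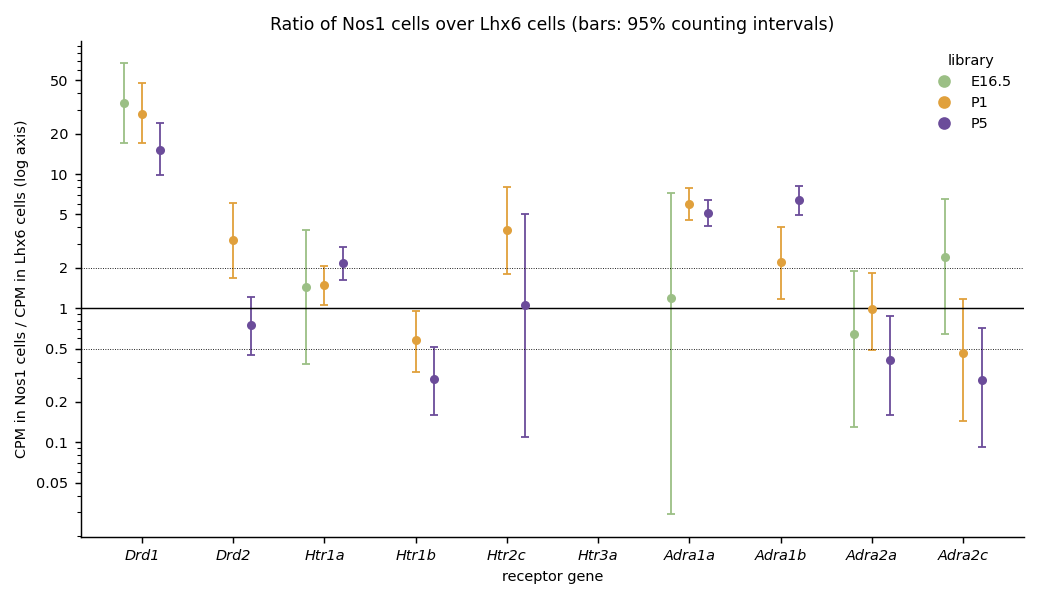
Ratio of CPM in Nos1 cells over Lhx6 cells (log y axis) for each receptor gene (x axis) in the E16.5, P1, and P5 libraries, with exact 95% counting intervals as bars, a solid line at 1, and dotted lines at 2 and 0.5. Genes with fewer than 10 UMIs in both groups together or 0 in a group have no point, and Drd1 sits at 33.9, 27.8, and 15.2 while Htr1b, Adra2a, and Adra2c sit under 0.5 at P5.

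The receptor genes differed between Nos1 and Lhx6 cells in both directions. Among genes with at least 10 UMIs over both groups, 2 of 8 receptor genes were over 2-fold higher in Nos1 cells at E16.5 (Drd1 and Adra2c), where 9.56% of all genes were. Of the same genes, 0 were called over 2-fold lower, where 5.06% of all genes were. A count of 0 was taken as 3 counts, so Htr1b, Htr2c, and Htr3a, at 0 in these Nos1 cells, could not be called lower. For Htr3a, 3 counts would give a ratio of 0.586. At P1, 5 of 9 were higher (Drd1, Drd2, Htr2c, Adra1a, and Adra1b) beside 5.79% of all genes, and 1 was lower (Adra2c) beside 5.41%. At P5, 4 of 9 were higher (Drd1, Htr1a, Adra1a, and Adra1b) beside 6.07%, and 3 were lower (Htr1b, Adra2a, and Adra2c) beside 8.85%. The median ratio of the receptor genes was 0.917, 2.22, and 1.05 in the 3 libraries, and that of all genes 0.966, 0.981, and 0.943. The call of Adra2c at E16.5 rests on 4 UMIs and that of Htr2c at P1 on 1 cell.

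Between stages, 6 of the 10 receptor genes were over 2-fold higher in Lhx6 cells at P1 than at E16.5 (Drd1, Drd2, Htr1a, Htr1b, Adra1a, and Adra1b), where 16% of all genes were, and Htr3a was lower, as were 6.27% of all genes. Their ratios ran from 2.52 for Drd1 (1.27 to 4.97) to 43.7 for Adra1b (11.2 to 376, on 2 UMIs at E16.5). Adra1a was 7.86-fold higher (5.15 to 12.3) and Drd2 15.9-fold (5.46 to 63.1, on 4 UMIs at E16.5). From P1 to P5, of 9 with enough UMIs, Drd2 and Adra1b were higher in Lhx6 cells, where 13.2% of all genes were, and Htr2c was lower (0.458, 0.180 to 1.09), as were 13.6%. In Nos1 cells Adra1b alone was over 2-fold higher at P5 than at P1, beside 8.93% of all genes, and Htr2c alone was lower, beside 14.4%.

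Summed by coupling, the Gq class was higher in Nos1 cells at P1 and P5 but not at E16.5, where the intervals overlapped, and the Gs class was Drd1 alone. The 3 Gq-coupled genes together were at 1.68, 83.8, and 173 CPM in Nos1 cells and at 2.87, 17.4, and 31.3 CPM in Lhx6 cells. The 5 Gi-coupled genes were at 18.5, 53.8, and 60.1 CPM in Nos1 cells and at 16.7, 48.3, and 71.9 CPM in Lhx6 cells. Of all receptor UMIs of the set, the Gi class made up 26.4% and 21.5% in Nos1 cells at P1 and P5 and 70.4% and 67.5% in Lhx6 cells. At least 1 of the 10 genes was detected in 35.8%, 51.2%, and 55.9% of Nos1 cells and in 12.7%, 19.6%, and 34.4% of Lhx6 cells. Thinned to 2000 UMIs, it was 7.69%, 34.8%, and 42.5% against 4.97%, 8.37%, and 19.8%. Before thinning, the most receptor genes found in 1 cell were 5.

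**Figure D3:**
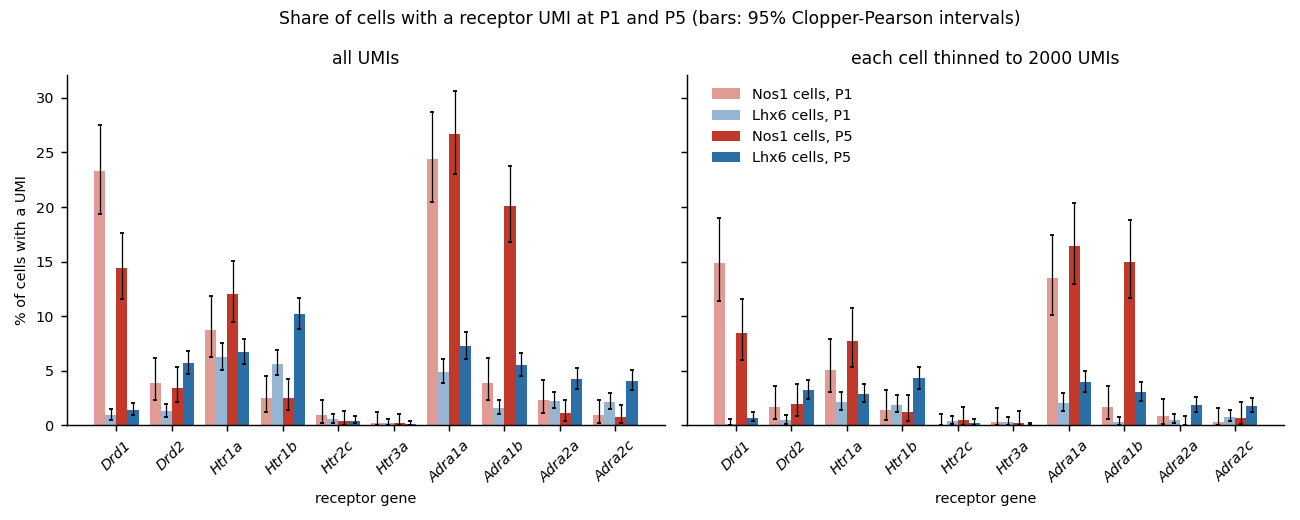
Share of cells with at least 1 UMI of each receptor gene (y axis, percent; x axis, gene) in Nos1 and Lhx6 cells at P1 and P5, from all UMIs (left) and after thinning each cell to 2000 UMIs (right). Bars are 1 library each with exact 95% Clopper-Pearson intervals, and the order of the groups for Drd1, Adra1a, and Adra1b is the same in both panels, as with 14.9% against 0.152% for Drd1 at P1 after thinning.

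Within the Nos1 cells of P1 and P5, Drd1 and the α1-adrenergic receptor genes were higher where Nos1 was higher. In cells with 1, 2 to 4, and 5 or more Nos1 UMIs, Drd1 was at 21.8, 61.2, and 94.4 CPM at P1 and at 12.8, 31.4, and 54.8 CPM at P5. Adra1a was at 23.3, 57.6, and 95.3 CPM at P1 and at 31.9, 94.2, and 100.1 CPM at P5. Adra1b at P5 was at 35.1, 62.8, and 96.0 CPM. Htr1b was at 18.7, 14.4, and 1.91 CPM at P1 and at 15.96, 0, and 6.17 CPM at P5, with no steady order in the latter. Htr1a did not keep its order between libraries: it was at 32.7, 36.0, and 19.1 CPM at P1 and at 6.38, 26.2, and 44.6 CPM at P5. Cells with 1 Nos1 UMI made up 126 of the 434 Nos1 cells at P1 and 81 of the 547 at P5. In these cells Chodl was at 74.7 and 54.3 CPM, against 409 and 480 CPM in those with 5 or more, and the part of free Nos1 RNA in them was not tested. Adra2c had 0 UMIs in the 228 and 384 cells with 5 or more. The E16.5 library had only 8 cells with 5 or more. Drd1 there was at 15.5, 68.6, and 27.2 CPM, on 5, 11, and 3 UMIs, with no steady order.

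**Figure D4:**
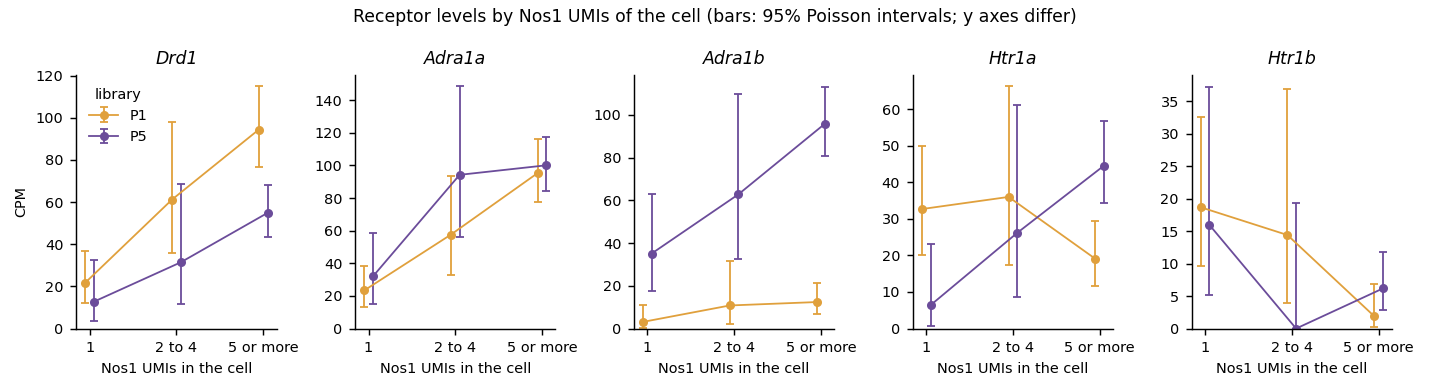
Level of 5 receptor genes in CPM (y axis, own scale per gene) in cells with 1, 2 to 4, or 5 or more Nos1 UMIs (x axis) in the P1 and P5 libraries, with exact 95% Poisson intervals as bars. Drd1 and Adra1a are higher with more Nos1 in both libraries (Drd1 21.8 to 94.4 CPM at P1), and Htr1b is lower at P1 (18.7 to 1.91 CPM).

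Other genes of LRP neurons split the Nos1 cells further. Drd1 was higher in Nos1 cells with the neuropeptide gene Npy than without it in each library, by 2.77-fold (0.793 to 14.8), 7.05-fold (1.91 to 58.9), and 5.88-fold (1.03 to 235). It was also higher in Nos1 cells with the transcription factor gene Dach1, at 68.3, 113, and 98.1 CPM against 16.7, 52.0, and 40.5 CPM, or 4.08-fold (1.48 to 12.2), 2.18-fold (1.499 to 3.13), and 2.43-fold (1.36 to 4.11). Nearly all Adra1a UMIs of the postnatal Nos1 cells were in cells with Npy: the 405 with Npy at P1 held 131 of 131, with 0 in the other 29, and the 519 at P5 held 172 of 174, with 2 in the other 28. In the same way, 131 of 131 and 172 of 174 were in Nos1 cells with Sst, which were 394 of the 434 and 525 of the 547 Nos1 cells. Htr1b was lower in Nos1 cells with Chodl, a marker of LRP neurons, with a ratio of 0.266 at P1 (0.0638 to 0.847) and 0.448 at P5 (0.128 to 1.47). Outside the rule for named genes, and chosen after the values were seen, Adra1b at P5 was 2.22-fold higher in the 236 Nos1 cells with Lypd1, which encodes a membrane protein that acts on nicotinic receptors, than in the other 311 (1.59 to 3.14), at 116.6 and 52.5 CPM. At P1 the ratio was 0.939 (0.174 to 3.32) on 3 UMIs in cells with Lypd1. Drd1 at P5 in the same cells had a ratio of 0.701 (0.445 to 1.09).

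Within the Lhx6 cells, the receptor genes took different sides of the genes that mark interneuron types. Drd1 and Adra1a were lower in cells with Reln, which encodes a secreted protein common in Martinotti cells. For Adra1a the levels were 0.691, 6.17, and 8.62 CPM with Reln and 1.91, 17.1, and 33.5 CPM without it, a ratio of 0.361 (0.121 to 0.907), 0.361 (0.221 to 0.576), and 0.257 (0.181 to 0.361). For Drd1 the ratio was 0.361 (0.0879 to 1.12), 0.296 (0.0835 to 0.870), and 0.116 (0.0345 to 0.312). Drd1 was also lower with Nr2f2 (0.252, 0.162, and 0.204) and with Npas1 (0.424, 0.403, and 0.388), which stand on the list of Martinotti genes, on 1 to 8 UMIs in the cells with the gene. Not every gene of that list went this way, and Adra1a met the naming rule with Reln alone. With Myh8, also listed, the Drd1 ratio was 38.5 at E16.5 (0.928 to 242, on 1 UMI in 2 cells) and 0.734 at P5 (0.0844 to 2.93). At P1, 0 Drd1 UMIs were in the 29 cells with Myh8. The Adra1a ratio with Myh8 was 1.07 at P1 (0.285 to 2.84) and 0.636 at P5 (0.299 to 1.20).

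Drd2 stood on the other side for Nr2f2. Over Reln its ratio was within 2-fold, at 0.980 (0.405 to 2.42) at P1 and 1.49 (0.991 to 2.29) at P5. In Lhx6 cells with Nr2f2 it was 2.92-fold higher at P1 (1.20 to 7.10) and 2.45-fold at P5 (1.70 to 3.54), at 23.7 against 9.66 CPM at P5. It was also higher with Sst, by 2.74-fold (0.673 to 24.0) and 2.72-fold (1.46 to 5.60), and with Id3, an inhibitor of basic helix-loop-helix factors seen in immature neurons, by 5.20-fold (1.82 to 13.2) and 6.88-fold (1.40 to 20.6), the latter on 3 UMIs in 6 cells. The ratios of Drd1 and Drd2 thus differed in direction over Nr2f2 in both postnatal libraries. The Drd1 side rests on 1 UMI in cells with Nr2f2 at P1 (0.00389 to 1.03) and 2 UMIs at P5 (0.0235 to 0.817).

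Adra2c was higher in cells with either of a pair of peptide genes of non-Martinotti interneurons, Tac1 and Nts, and with Gpx3, which is on the Martinotti list. With Tac1, the gene of substance P, it was 5.62-fold (2.85 to 10.4), 5.70-fold (2.60 to 11.6), and 2.74-fold (1.39 to 5.005) higher. With Nts, the neurotensin gene, the ratio was 11.7, 4.91, and 5.06, on 2, 2, and 6 UMIs in 4, 12, and 26 cells. With Gpx3, a glutathione peroxidase gene, it was 3.04, 3.45, and 3.23, at 19.4 against 5.99 CPM at P5. Adra1b was 13.6-fold (1.58 to 53.6) and 5.42-fold (2.53 to 10.4) higher at P1 and P5 in cells with Th, which encodes tyrosine hydroxylase of catecholamine synthesis, on 2 UMIs in 4 cells and 10 UMIs in 28 cells.

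Splits by the genes of migrating or immature cells did not go one way, as Drd2 above was higher with Id3. Htr1a was lower in Lhx6 cells with Cxcr4, a chemokine receptor of migrating interneurons, with a ratio of 0.234 (0.109 to 0.451), 0.456 (0.265 to 0.744), and 0.319 (0.00802 to 1.80, on 1 UMI). In cells with Igfbpl1, a gene of young neurons, Htr1b had a ratio of 0.348 (0.124 to 0.864), 0.464 (0.225 to 0.862), and 0.239 (0.00602 to 1.34), and Adra1b of 0.313 and 0.440 at P1 and P5, on 2 UMIs and 1 UMI in cells with Igfbpl1. Htr2c was lower with Igfbpl1 too (0.246 and 0.303 at E16.5 and P1) and higher with Sst (2.94 and 3.98), on 29 and 17 UMIs in all. Htr3a had enough UMIs at E16.5 alone, and the genes given for it here were chosen after the values were seen. It was 3.49-fold higher with Igfbpl1 (2.43 to 5.10) and 3.07-fold with Id3 (2.18 to 4.29). It was lower with Cort, the cortistatin gene (0.0673, 0.0181 to 0.175), and with the transcription factor gene Etv1 (0.154, 0.0691 to 0.299).

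**Figure D5:**
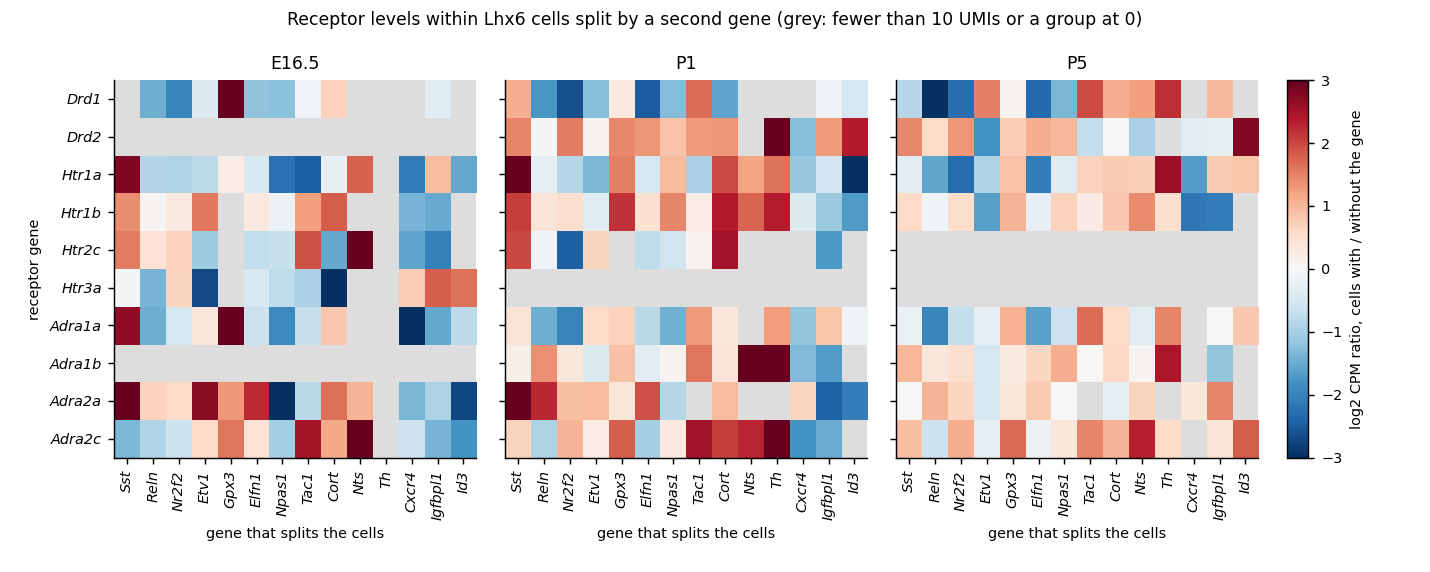
Log2 ratio of CPM (colour, from -3 to 3) of each receptor gene (rows) in Lhx6 cells with at least 1 UMI of a second gene (columns) over Lhx6 cells without it, in the E16.5, P1, and P5 libraries. Grey fields have fewer than 10 UMIs or 0 in a group, and the row of Adra1a is blue under Reln in all 3 libraries (ratios 0.361, 0.361, and 0.257) while that of Adra2c is red under Tac1 (5.62, 5.70, and 2.74).

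Among 22 other monoamine receptor genes, 9, 8, and 10 had at least 10 UMIs in the 3 libraries, of which 2, 3, and 3 were over 2-fold higher in Nos1 cells and 2, 3, and 2 lower. By the same rule, 9.56%, 5.79%, and 6.07% of all genes were higher and 5.06%, 5.41%, and 8.85% lower. Htr1d, a Gi-coupled receptor close to Htr1b, was higher in Nos1 cells in all 3, at 11.8, 4.57, and 9.68 CPM against 1.84, 0.874, and 1.08 CPM, or 6.41-fold (2.42 to 14.5), 5.23-fold (1.73 to 16.5), and 8.96-fold (3.96 to 21.6). It had 7, 9, and 19 UMIs in Nos1 cells. Htr2a, a Gq-coupled receptor, was lower in all 3, with 1, 9, and 8 UMIs in Nos1 cells and ratios of 0.189 (0.00476 to 1.07), 0.321 (0.143 to 0.631), and 0.424 (0.178 to 0.872).

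Genes that make, move, and degrade monoamines and those that signal behind the receptors were counted in the same way. The counts stand beside the same shares of all genes, 9.56%, 5.79%, and 6.07% higher and 5.06%, 5.41%, and 8.85% lower. Of 16 genes of monoamine synthesis and transport, 4, 4, and 7 could be compared, 0 were over 2-fold higher in Nos1 cells in any library, and 1 was lower, at P5. Among those with the highest levels was Slc29a4, a low-affinity monoamine transporter, at 35.3, 58.9, and 84.6 CPM in Nos1 cells and 30.4, 56.7, and 52.7 CPM in Lhx6 cells. Of 13 Gq signalling genes, 9, 10, and 10 could be compared, of which 3, 3, and 1 were higher and 0, 0, and 1 lower. The pair with the highest CPM summed over the 3 libraries, the Gq subunit gene Gnaq and the phospholipase gene Plcb1, had ratios of 0.867 to 0.971 and 0.889 to 1.05. Of 9 Gi signalling genes, 8 could be compared in each library, of which 0 were higher in any library and 2, 1, and 2 lower. One of them was Kcnj6, a potassium channel subunit opened by Gi-coupled receptors, with ratios of 0.215 (0.00542 to 1.22), 0.316 (0.124 to 0.679), and 0.263 (0.124 to 0.496). Of 15 Gs signalling genes, 15, 14, and 14 could be compared, of which 4, 2, and 2 were higher and 1, 2, and 2 lower. Pde4b, which breaks down cAMP, was higher in each, by 3.93-fold (1.97 to 7.16), 2.72-fold (2.09 to 3.53), and 3.80-fold (2.61 to 5.52). Of 13 receptor regulators, 12, 13, and 13 could be compared, of which 1 was higher in each library and 1, 1, and 3 were lower. The higher one was Rgs8, which speeds the shut-off of G proteins, by 3.31-fold (2.01 to 5.18), 3.57-fold (2.75 to 4.62), and 2.06-fold (1.70 to 2.48). The ratios of these genes, and those of Htr1d and Htr2a, are over all Nos1 cells. The part of Nos1 cells with excitatory genes in them was not tested.

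Likeness was taken as Pearson r of log2(CPM + 1) over the 9 groups of cells (3 libraries by Nos1 cells, Lhx6 cells, and cells with neither). Among 10819 genes compared, the gene most like Adra1a was Nrsn1 (r = 0.987), followed by Plekha7 (0.984) and Glt1d1 (0.978). Those most like Drd1 were Sipa1l1 (0.968), the substance P receptor gene Tacr1 (0.955), and Vwc2l (0.951). For Adra1b they were Dlg3 (0.958), the sodium channel subunit gene Scn3b (0.958), and Sdk2 (0.957), and Sdk2 was also next to Drd2 (0.980), between Sidt1 (0.981) and Tmem56 (0.973). Htr1a was nearest to Cggbp1 (0.983), Aff2 (0.980), and Zfp575 (0.976), and Htr1b to Nol6 (0.975) and Sv2c (0.970). Htr3a was nearest to Cd68 (0.957), Dlgap2 (0.953), and Dhodh (0.938), Adra2a to Fkbp14 (0.952), Zeb2os (0.951), and Nrg3 (0.932), and Adra2c to Sertm1 (0.931), Prps2 (0.921), and Tst (0.908). Each r rests on 9 points and is among the highest of 10819 genes, and how high it would be for unrelated genes was not tested. Groups of 1 library share its depth and handling, and Htr2c, under 200 UMIs in all, was left out.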

How the data were processed

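Sorted GFP+ cells of 1 library per stage were measured. Reads had been mapped by the authors with Cell Ranger, which runs STAR (3.1.0 for E16.5 and P5, 3.0.2 for P1, per the file headers; build GRCm38), and they deposited raw UMI counts for each gene and cell, without normalization. The libraries held 25638779, 15654107, and 13429055 UMIs in 4478, 4440, and 3406 cells. Of these, 88.3%, 56.3%, and 87.5% of cells were kept (over 700 genes, under 10% mitochondrial UMIs). Kept cells of 2 libraries shared 1 or 2 barcodes. No doublet caller was run, and doublets were left in.

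Counts were summed by cell group and library with numpy 2.4.6, pandas 2.3.3, and scipy 1.17.1 (Python 3.11.15). Intervals are exact (Poisson for CPM, Clopper-Pearson for shares, conditional binomial for ratios, 95%). The level that 3 counts would give is printed as a floor. With 1 library per stage no test was made, and genes were compared by a 2-fold limit at 10 or more UMIs. Named genes outside the set are those past 2-fold the same way in all 3 libraries, or the 2 highest of a list with none. Genes that split cells are those past 2-fold the same way in every library with 10 UMIs (at least 2 libraries), at most 3 per direction. The receptor set and the gene lists were chosen with earlier results of these data known. Alternatives covered the cell filter, the Nos1 and Lhx6 limits, the total, per-cell means, cells with excitatory genes, the deepest 5% of cells, thinning, and the limits of fold and UMIs, and 2 more (without the cell with most Htr2c; Nos1 cells with Lhx6) were added after seeing the data. The steps were tested on simulated data. Some genes that the naming rule picks are not reported here.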

Additional observations from a re-analysis of the deposited data

Results flagged for a closer look

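Drd2 and Adra2c lay on opposite sides of 1 in the ratio of Nos1 cells over Lhx6 cells between libraries. Drd2 was 3.22-fold higher in Nos1 cells at P1 and had a ratio of 0.755 at P5. For Adra2c the ratio was 2.42 in the E16.5 library but 0.462 and 0.291 in those of P1 and P5, with 4, 5, and 5 UMIs in Nos1 cells. The differences between libraries were not tested, since each stage has 1 library.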

How the results depend on the processing

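In Nos1 cells over Lhx6 cells, the 2 genes above 2-fold at E16.5 became 4 with per-cell means (Htr1a and Adra1a added), 1 at 3-fold, and 1 at 50 UMIs, and the 5 at P1 became 3 with over 1000 genes and under 5% mitochondrial UMIs and 3 at 50 UMIs. The 4 above at P5 moved by no more than 1.5 times under any alternative. Of genes below 1/2, the 0 at E16.5 became 1 under the stricter filter, with 2 Nos1 UMIs, with per-cell means, and without the deepest 5% of cells. The 1 at P1 became 2 with 2 Nos1 UMIs, per-cell means, no excitatory-gene cells, or no deepest cells (Htr1b added in each), 3 with 5 Nos1 UMIs, and 0 at 3-fold or 50 UMIs. In Lhx6 cells, the 6 genes higher at P1 became 3 at 50 UMIs, the 2 higher at P5 became 5 under the stricter filter and 4 with per-cell means, and the 1 lower at P5 became 0 under the stricter filter, with 2 Lhx6 UMIs, per-cell means, 3-fold, or 50 UMIs. In Nos1 cells, the 1 higher at P5 became 3 under the stricter filter or with 5 Nos1 UMIs and 2 without the deepest cells. The 1 lower at P5, Htr2c, became 0 under the stricter filter, with 5 Nos1 UMIs, at 50 UMIs, or without excitatory-gene cells, the deepest cells, or the cell with 13 UMIs (added after seeing the data), and 2 with 2 Nos1 UMIs. The Htr2c ratio at P1 reversed to 0.449 with 5 Nos1 UMIs, 0.517 without excitatory-gene cells, 0.647 without the deepest cells, and 0.726 without that cell. The Adra1a ratio at P1 became 8.58 with 5 Nos1 UMIs. Apart from that 1 cell, the cause was not tested. Of 200 planned ratios, 184 stayed within the counting interval of the reported value, 13 left it, and 3 reversed. Of 540 planned CPM values 68 left theirs, and of 60 shares 46 did after thinning. Nos1 and Lhx6 cells pair by library, and the ratios are those paired values. The 67 Nos1 cells at E16.5 limit that library, since 3 counts there are 5.05 CPM.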

Other observations

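Htr1a and Htr1b were found in the same Lhx6 cells in 24 of 1606 cells at P1 and 32 of 1874 at P5, where 5.67 and 12.8 cells would hold both if the genes were independent. In Nos1 cells, Drd1 and Adra1a were found together in 37 cells at P1 and 24 at P5 (24.7 and 21.1 if independent), and Adra1a and Adra1b in 41 cells at P5 (29.4 if independent). These are some of the pairs counted. In Lhx6 cells other pairs were above independence too, as Htr1a and Adra1a at P1 (16 cells, 4.92 if independent) and Drd2 and Htr1b at P5 (24, 10.9). Others were below it, as Htr1a and Adra1b at P5 (2, 6.93). At E16.5, Htr1a and Htr1b were together in 0 Lhx6 cells (0.563 if independent). Deeper cells hold more of every gene, and the part of depth in these counts was not tested.

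In Lhx6 cells, which have no Nos1 UMI, Drd1 was higher with some genes of the Nos1 cells, and others gave few UMIs or no steady direction. At P1 it was at 11.1 CPM in the 56 Lhx6 cells with Chodl and at 1.96 CPM in the others (ratio 5.69, 1.37 to 17.9), and at P5 at 17.5 CPM in 54 cells and 2.56 CPM in the others (6.85, 2.03 to 18.4). At E16.5 the ratio was 3.41 (0.384 to 14.2). Split by Pou3f2 the ratios were 3.55 (0.399 to 14.8), 7.71 (2.77 to 21.1), and 2.33 (0.267 to 9.29). Split by Npy they were 3.15 (0.910 to 16.8), 6.76 (1.07 to 282, on 1 UMI in cells without Npy), and 1.58 (0.683 to 3.98). With Dach1 the ratio was 19.99 at E16.5. At P1 and P5, 0 Drd1 UMIs were in the 17 and 11 cells with Dach1, and the upper limits of the ratio were 15.1 and 24.8. With Lypd1 there were 0 UMIs in 38 cells at E16.5 and in 84 at P5, with upper limits of 17.1 and 2.75 (3.88 at P1, on 2 UMIs). These zeros do not show that Drd1 was not higher. With Sst, all 20 Drd1 UMIs at E16.5 were in cells with it (lower limit 1.07). The Sst ratio was 2.12 at P1 (0.502 to 18.9) and 0.554 at P5 (0.239 to 1.39). These splits were chosen after the data were seen. Cells with neither Lhx6 nor Nos1 held Adra1b at E16.5, with 12 UMIs in 9 of 616 cells (4.28 CPM, 2.21 to 7.47), when Lhx6 cells held 2 UMIs in 3269 cells (0.0942 CPM), and 4 of the 12 UMIs were in 2 of 26 excitatory-gene cells. Htr7, a Gs-coupled serotonin receptor gene outside the naming rule and picked after its values were seen, had a ratio of Nos1 cells over Lhx6 cells of 0.237 at E16.5 (1 UMI in Nos1 cells), 0.904 at P1, and 2.22 at P5 (1.49 to 3.26).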
